A study of Homo sapiens with 12 samples.

Results

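The mRNAs of 10 amino acid transporter genes were followed in the polysome fractions of 3 triple-negative breast cancer cell lines: SLC7A5, SLC3A2, SLC7A11, SLC7A1, SLC1A5, SLC1A4, SLC38A1, SLC38A2, SLC43A2 and SLC6A9. They were chosen by symbol, as plasma membrane carriers of amino acids, with earlier results of these data known. They are 10 of the 24559 gene symbols in the deposited count table. All 10 passed the filter on low counts, and 16538 genes were tested. The clearest differences were in SUM159 cells. In them 8 of the 10 mRNAs were called lower after knockdown of TRMT112, where 31.4% of all genes tested were. The cystine carrier SLC7A11 was lower by 19.8-fold. In MDA-MB-231 cells the same knockdown moved 9 of the 10 by less than 1.5-fold, in both directions, and the leucine carrier SLC7A5 was higher there rather than lower.

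TRMT112 is a small activator subunit of several RNA and protein methyltransferases, including those that modify ribosomal and transfer RNA. MDA-MB-231 and SUM159 cells were compared as knockdown (KD) and control (EV), and BT549 cells as overexpression (OE) and control (EV), with 2 libraries in each of 6 groups. Ribosome-bound mRNA was collected from pooled polysome fractions of sucrose gradients. The comparison asks which mRNAs change in their share of the polysome mRNA when the amount of TRMT112 changes. Levels are scaled within each library, so higher and lower are relative to the other mRNAs. A change in the total amount of mRNA on polysomes cannot be seen in them. The paper reports smaller polysome peaks after KD in both lines and larger ones with OE.

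For KD the cells carried a GIPZ lentiviral short hairpin plasmid against TRMT112, and their EV control a non-silencing hairpin in that vector, both under puromycin. For OE the cells carried a TRMT112 open reading frame in pReceiver-M02, and their EV control the empty plasmid, both under G418. MDA-MB-231 cells grew in DMEM/F-12 with 5% serum, SUM159 cells in that medium with added insulin and hydrocortisone, and BT549 cells in RPMI 1640 with 10% serum. The EV groups of MDA-MB-231 and SUM159 share vector and drug, so there line and medium cannot be told apart, and against BT549 line, medium, vector and drug cannot. Total RNA libraries were not analysed here, so more mRNA per cell and more of it on polysomes cannot be told apart. No label says whether the 2 libraries of a group came from separate cultures, and p-values then measure only the spread between these libraries, which may be technical.

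Amino acid carriers of the plasma membrane work in linked systems. SLC7A5 (LAT1) brings in leucine and other large neutral amino acids in exchange for glutamine, and SLC7A11 (xCT) brings in cystine in exchange for glutamate. Both are light chains that need the heavy chain SLC3A2 (CD98hc, 4F2hc) to reach the membrane. SLC1A5 (ASCT2) and SLC1A4 (ASCT1) exchange small neutral amino acids, among them glutamine for SLC1A5 and serine and alanine for SLC1A4. SLC38A1 (SNAT1) and SLC38A2 (SNAT2) load the cell with glutamine and alanine together with sodium, SLC7A1 (CAT1) carries arginine and lysine, SLC43A2 (LAT4) carries branched-chain amino acids and phenylalanine without exchange, and SLC6A9 (GLYT1) carries glycine. Many of these genes are known targets of ATF4, the transcription factor of the amino acid response, and in tumor cells several are also known targets of MYC or NRF2.

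The libraries held between 22954226 and 27434677 expected counts each, and 3 counts correspond to 0.109 to 0.142 CPM, the counts divided by the scaled library total, after TMM scaling, which is the unit of the levels that follow. TRMT112 itself went the way of the labels: 173 and 165 CPM in MDA-MB-231 EV against 73.8 and 70.4 in KD, 265 and 275 in SUM159 EV against 163 and 155 in KD, and 129 and 129 in BT549 EV against 179 and 181 in OE. The knockdown was thus deeper in MDA-MB-231 (log2 fold change -1.23) than in SUM159 (-0.76), and the difference of -0.47 passed the test (adjusted p = 1.8e-07). The 2 BT549 groups stood far apart over the whole table, with 70.6% of all genes tested called. Of 3 breast receptor genes ESR1 was not listed and PGR was at most 0.417 CPM, while ERBB2 was at 57.9 to 143 CPM, its mean falling from 140.5 in BT549 EV to 71.4 in OE. Of 5 epithelial markers KRT8 and KRT18 were at 183 CPM or more in every MDA-MB-231 and SUM159 library and at most 0.741 CPM in BT549, and EPCAM, CDH1 and KRT19 were at most 3.02, 2.66 and 0.787 CPM in any library. Of 4 mesenchymal markers VIM was at 703.6 CPM or more throughout, and CDH2 was at 0.0764 to 0.443 CPM in MDA-MB-231 but at 44.7 or more in the other 2 lines. VIM, FN1 and ZEB1 were lower in BT549 OE, at log2 fold changes of -1.47, -0.96 and -1.11. Of the leukocyte markers CD3E was not listed and PTPRC was at most 0.579 CPM, but CD68, a lysosomal protein, was at 173 to 179 CPM in BT549 EV and 6.81 to 6.96 in OE. The part of these differences in the transporter results was not tested.

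Because SLC7A5 and SLC3A2 encode the 2 chains of one transporter, their promoters are shown first, with that of SLC7A1. The 250 bases before each RefSeq start (GRCh38.p14) that lies nearest the 5′ end of the gene's most abundant transcript are given 5′ to 3′ on the gene's strand, and capitals mark matches to 3 motifs searched on both strands.
SLC7A5 (chr16:87869508-87869757, minus strand): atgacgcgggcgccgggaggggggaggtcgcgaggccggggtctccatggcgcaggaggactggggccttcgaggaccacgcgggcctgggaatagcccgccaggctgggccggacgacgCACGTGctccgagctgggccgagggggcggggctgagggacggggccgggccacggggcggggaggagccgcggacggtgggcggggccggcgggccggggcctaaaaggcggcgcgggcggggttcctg
SLC3A2 (chr11:62880646-62880895, plus strand): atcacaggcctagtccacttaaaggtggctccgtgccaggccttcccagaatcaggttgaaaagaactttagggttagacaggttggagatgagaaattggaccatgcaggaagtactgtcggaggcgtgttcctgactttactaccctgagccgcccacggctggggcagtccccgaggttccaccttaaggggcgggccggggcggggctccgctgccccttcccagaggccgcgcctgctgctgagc
SLC7A1 (chr13:29595689-29595938, minus strand): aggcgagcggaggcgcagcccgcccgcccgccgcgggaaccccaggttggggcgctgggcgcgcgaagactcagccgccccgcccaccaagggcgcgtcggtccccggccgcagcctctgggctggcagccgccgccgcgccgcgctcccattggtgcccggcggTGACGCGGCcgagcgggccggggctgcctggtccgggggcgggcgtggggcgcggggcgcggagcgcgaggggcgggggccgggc
The motifs were TGATGNAA for the CEBP-ATF response element, TGACNNNGC for the core of the antioxidant response element and CACGTG for the E-box bound by MYC among others. They stood in 3.14%, 10.9% and 6.34% of 35116 promoters of the same length. SLC7A11 was not searched. Among the 9 genes with a promoter in that table, an E-box was found in SLC7A5 only, 130 to 125 bases before the start, and the antioxidant core in SLC7A1 only, 85 to 77 bases before it. The CEBP-ATF element was found in 0 of the 9, which says little for a motif in 3.14% of promoters. The start used lay 1056 bases from that of the main transcript for SLC38A1 and 75 for SLC43A2. These are matches of letters and not shown to be bound.

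**Figure D1:**
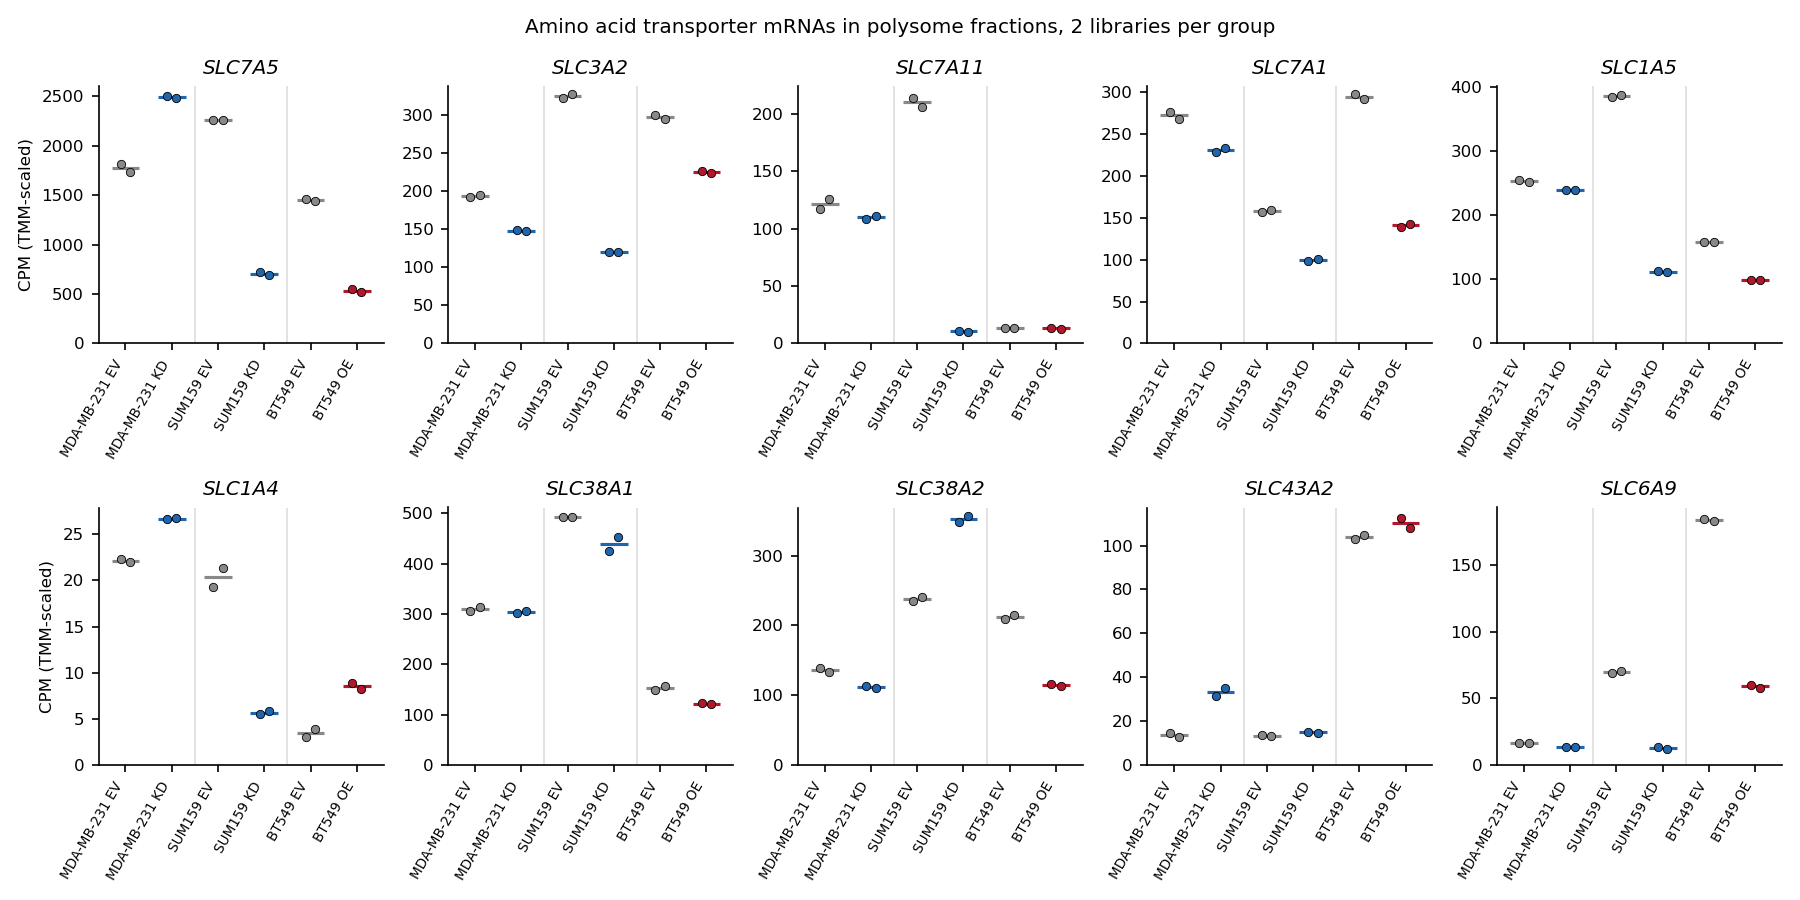
Level of each of the 10 transporter mRNAs in CPM after TMM scaling, with each y axis starting at 0. Points are the 2 libraries of a group and bars their mean, with EV in grey, KD in blue and OE in red. In SUM159 the KD libraries lie below the EV libraries for 8 of the 10 genes by the test, and SLC38A2 lies above. Of all genes tested, 31.4% were called lower there and 28.6% higher.

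The 2 chains of the leucine transporter moved apart in MDA-MB-231. SLC7A5 (ENSG00000103257, chromosome 16, 87830023 to 87869507, minus strand, GRCh38) stood at 1819 and 1734 CPM in MDA-MB-231 EV and 2505 and 2487 in KD. In SUM159 it stood at 2260 and 2262 CPM in EV and 720.5 and 692.8 in KD. In BT549 it stood at 1457 and 1437 CPM in EV and 547 and 516 in OE. No 2 groups overlapped, and KD libraries were above their control in MDA-MB-231 and below it in SUM159. SLC7A5 was 1.4-fold higher after KD in MDA-MB-231, 3.2-fold lower after KD in SUM159 and 2.72-fold lower with OE in BT549, each past an adjusted p of 0.05 (edgeR quasi-likelihood test with Benjamini-Hochberg adjustment). The difference between its KD effects in the 2 lines was 2.17 on the log2 scale (95% interval 2.09 to 2.25, adjusted p = 1.5e-21).

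SLC3A2 (ENSG00000168003, chromosome 11, 62856004 to 62888880, plus strand), the heavy chain, was lower in all 3 comparisons. Its levels were 193 and 195 CPM in MDA-MB-231 EV and 149 and 147 in KD. They were 323 and 328 CPM in SUM159 EV and 119.8 and 119.9 in KD. They were 301 and 295 CPM in BT549 EV and 227 and 224 in OE. The groups did not overlap within any line, and the SUM159 difference was the largest, at a log2 fold change of -1.44 ± 0.03 (SE) against -0.39 ± 0.03 in MDA-MB-231 and -0.40 ± 0.03 in BT549.

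Compared per transcript length, in TPM, the analogous unit that also divides by transcript length, the mRNA of the light chain exceeded that of the heavy chain in every group but BT549 OE. The ratio of SLC7A5 to SLC3A2 was 3.92 and 3.70 in MDA-MB-231 EV against 7.01 and 7.06 in KD. It was 2.90 and 2.86 in SUM159 EV and 2.46 and 2.36 in KD, and 1.99 and 1.99 in BT549 EV against 0.997 and 0.944 in OE. The KD and OE libraries lay outside the range of their control in each line, with the smallest shift in SUM159. Both chains fell in SUM159 KD and in BT549 OE. The 10 genes summed to 1541 and 1507 TPM in MDA-MB-231 EV, 1699 and 1671 in KD, 1849 and 1858 in SUM159 EV, 720 and 732 in KD, 1178 and 1188 in BT549 EV and 641 and 662 in OE. SLC7A5 alone made up 62.8% of that sum in MDA-MB-231 KD and 27.8% in BT549 OE.

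SLC7A11 (ENSG00000151012, chromosome 4, 138164097 to 138242349, minus strand), the cystine carrier, gave the largest difference of the 10. It stood at 214 and 206 CPM in SUM159 EV and 11.2 and 10.1 in KD, a log2 fold change of -4.31 (95% interval -4.43 to -4.18). In MDA-MB-231 it stood at 117 and 126 CPM in EV and 109 and 112 in KD, and in BT549 at 13.6 and 13.0 in EV and 13.3 and 12.6 in OE. The SUM159 KD libraries lay below every BT549 library, and in BT549 the groups overlapped and no change was called (log2 fold change -0.03, 95% interval -0.22 to 0.16). The call in MDA-MB-231 (log2 fold change -0.15, adjusted p = 0.012) was small, and it was lost without EV replicate 2 (adjusted p = 0.25), without KD replicate 1 (adjusted p = 0.11), and by DESeq2 (adjusted p = 0.053). The difference between the KD effects of the 2 lines was 4.16 on the log2 scale. Relative to its heavy chain, the TPM ratio of SLC7A11 to SLC3A2 was 0.133 and 0.125 in SUM159 EV and 0.0191 and 0.0173 in KD, while MDA-MB-231 gave 0.129 and 0.135 in EV against 0.160 and 0.164 in KD.

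**Figure D2:**
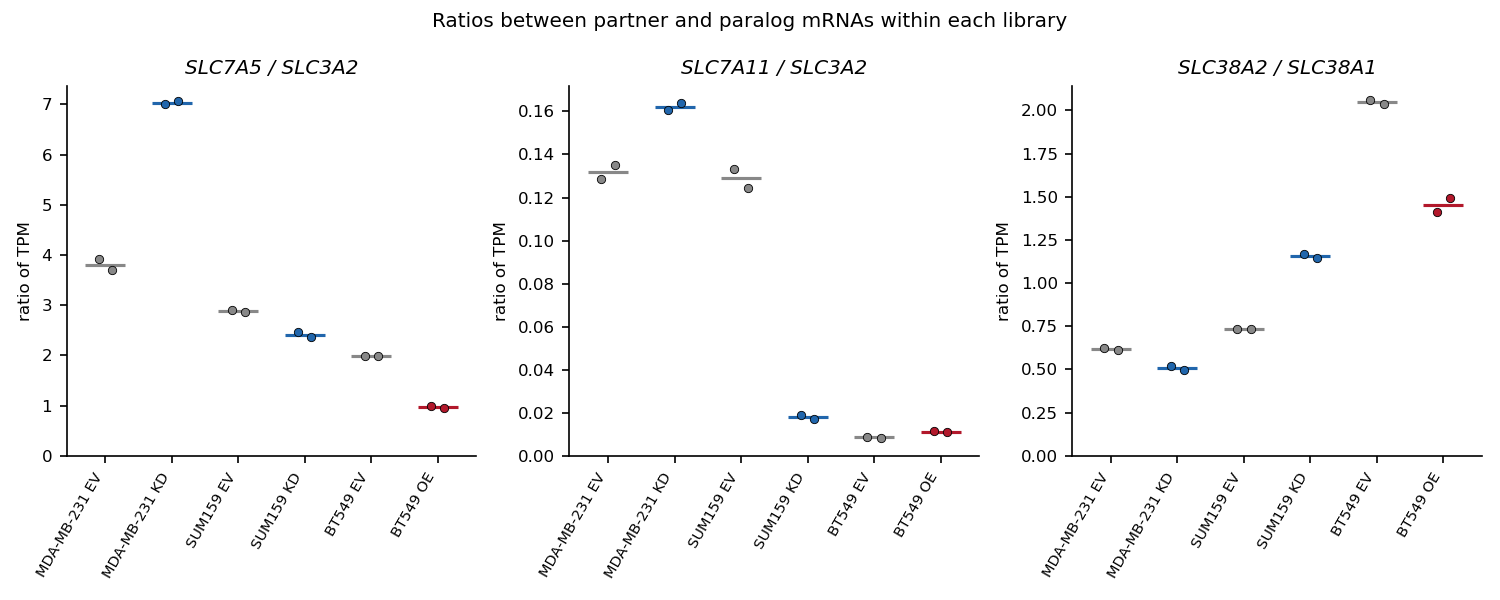
Ratio of TPM between 2 transporter mRNAs within each library, for SLC7A5 to SLC3A2, SLC7A11 to SLC3A2 and SLC38A2 to SLC38A1, with axes starting at 0. Points are libraries and bars group means. The first ratio is highest in MDA-MB-231 KD, near 7, and the third is above 1 in SUM159 KD and in both BT549 groups.

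Of the exchangers of small neutral amino acids, SLC1A5 and SLC1A4 did not move alike. SLC1A5 (ENSG00000105281, chromosome 19, 46774883 to 46788594, minus strand) stood at 384 and 387 CPM in SUM159 EV and 113 and 111 in KD, and at 157.7 and 157.7 in BT549 EV and 98.2 and 98.6 in OE. In MDA-MB-231 it stood at 255 and 252 CPM in EV and 240 and 239 in KD. It was 3.44-fold lower in SUM159 KD and 1.6-fold lower in BT549 OE. The MDA-MB-231 call (log2 fold change -0.08, adjusted p = 0.035) was lost by DESeq2 (adjusted p = 0.14) and without any one of the 4 libraries (adjusted p 0.095 to 0.16). SLC1A4 (ENSG00000115902, chromosome 2, 64988477 to 65023865, plus strand) was far lower, at 19.3 and 21.3 CPM in SUM159 EV and 5.52 and 5.79 in KD. In BT549 it went the other way, from 3.02 and 3.94 CPM in EV to 8.89 and 8.19 in OE, a log2 fold change of 1.30 ± 0.14 (SE). It was the only one of the 10 called higher in OE. In MDA-MB-231 it stood at 22.3 and 22.0 CPM in EV and 26.6 and 26.7 in KD, a log2 fold change of 0.27 whose call was lost without any one of the 4 libraries (adjusted p 0.066 to 0.083).

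The sodium-coupled loaders also differed from each other. SLC38A1 (ENSG00000111371, chromosome 12, 46183063 to 46270017, minus strand) changed least in SUM159 among the genes called, with 493.1 and 492.6 CPM in EV and 425 and 452 in KD. It stood at 306 and 315 CPM in MDA-MB-231 EV and 303 and 305 in KD, which was not called (log2 fold change -0.03, adjusted p = 0.52), and at 149.5 and 156 in BT549 EV and 123 and 121 in OE. SLC38A2 (ENSG00000134294, chromosome 12, 46358188 to 46372773, minus strand) was the only one of the 10 called higher in SUM159 KD, from 235 and 241 CPM in EV to 348 and 357. In MDA-MB-231 it fell from 139 and 134 CPM in EV to 113 and 110.1 in KD, and in BT549 from 209 and 215 in EV to 116 and 113 in OE. These changes were 0.57 on the log2 scale in SUM159, -0.29 in MDA-MB-231 and -0.89 in BT549, all past the threshold. The TPM ratio of SLC38A2 to SLC38A1 was 0.733 and 0.737 in SUM159 EV and 1.17 and 1.15 in KD. BT549 gave 2.06 and 2.04 in EV against 1.41 and 1.49 in OE, and MDA-MB-231 gave 0.627 and 0.613 in EV against 0.519 and 0.498 in KD.

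The remaining carriers are those of cationic amino acids, branched-chain amino acids and glycine. SLC7A1 (ENSG00000139514, chromosome 13, 29509414 to 29595688, minus strand) stood at 277 and 269 CPM in MDA-MB-231 EV and 229 and 234 in KD, at 158 and 159.7 in SUM159 EV and 98.2 and 101 in KD, and at 298 and 292 in BT549 EV and 139 and 143 in OE. It was lower in all 3 comparisons, and its largest change was in BT549 (log2 fold change -1.06 ± 0.03 SE), as it was for SLC38A1 and SLC38A2. SLC43A2 (ENSG00000167703, chromosome 17, 1569268 to 1628886, minus strand) stood at 14.4 and 12.8 CPM in MDA-MB-231 EV and 31.5 and 35.1 in KD, 2.44-fold higher and the largest change of the 10 in that line. It stood at 13.4 and 13.3 CPM in SUM159 EV and 15.1 and 14.6 in KD, and at 103 and 105 in BT549 EV and 112 and 108 in OE. Neither of these was called, with log2 fold changes of 0.15 (95% interval -0.03 to 0.33) and 0.09 (-0.02 to 0.19), and each passed under 1 alternative, RLE scaling in SUM159 (adjusted p = 0.048) and a mean of 50 or more counts in BT549 (adjusted p = 0.0499). SLC6A9 (ENSG00000196517, chromosome 1, 43991500 to 44031467, minus strand) fell from 68.9 and 70.9 CPM in SUM159 EV to 13.2 and 11.6 in KD, 5.66-fold. It fell from 185 and 183 CPM in BT549 EV to 60.4 and 57.6 in OE, 3.12-fold. In MDA-MB-231 it stood at 16.4 and 16.4 CPM in EV and 13.8 and 13.5 in KD, a call (adjusted p = 0.0078) lost without KD replicate 2 (adjusted p = 0.057).

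**Figure D3:**
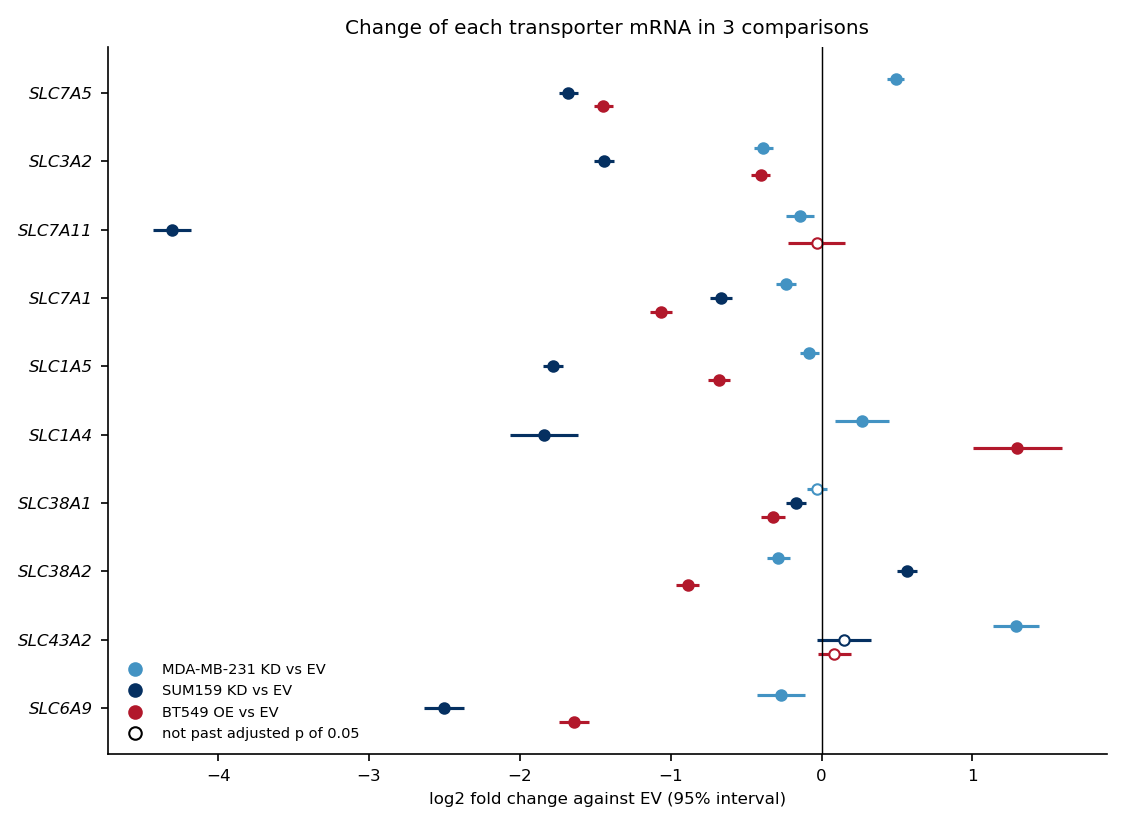
Log2 fold change against EV with its 95% interval for each of the 10 genes, in MDA-MB-231 KD, SUM159 KD and BT549 OE. Filled points passed an adjusted p of 0.05. SLC7A11 lies at -4.31 in SUM159 and near 0 in the other 2 comparisons, and SLC7A5 lies right of 0 in MDA-MB-231 only.

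Counted together, 3 of the 10 were called higher and 6 lower in MDA-MB-231 KD, against 21.2% and 16.5% of all genes tested. With scaling by library size only these were 2 and 7, against 14.3% and 24.7%. With RLE scaling they were 3 and 5, where 3827 and 2497 of the 16538 genes were called. By DESeq2 they were 3 and 4, where 3587 and 2187 were. In SUM159 KD 1 was called higher and 8 lower, against 28.6% and 31.4%. In BT549 OE 1 was called higher and 7 lower, against 35.6% and 35.0%. The median log2 fold change of the 10 was -0.11 in MDA-MB-231, -1.56 in SUM159 and -0.54 in BT549, where that of all genes was 0, 0 and 0.02. The 5 genes SLC3A2, SLC7A11, SLC7A1, SLC1A5 and SLC6A9 were called lower after KD in both lines, and 3, SLC7A5, SLC1A4 and SLC38A2, were called in opposite directions. With OE 4 of those 5, SLC3A2, SLC7A1, SLC1A5 and SLC6A9, were called lower as well. How many of all genes show each of these joint patterns was not counted, so whether the overlaps are unusual is not known. The joint counts of the members rest on the choice of test, since SLC7A11 and SLC1A5 lost their MDA-MB-231 calls by DESeq2. They also rest on single MDA-MB-231 libraries. Those lower in both knockdown lines were 4 without EV replicate 1 (SLC1A5 lost), 3 without EV replicate 2 or without KD replicate 1 (SLC7A11 and SLC1A5 lost) and 3 without KD replicate 2 (SLC1A5 and SLC6A9 lost). Those lower in all 3 comparisons were then 3, 3, 3 and 2. The KD effect in MDA-MB-231 minus that in SUM159 was called above 0 for 9 genes and below 0 for 1, SLC38A2, against 27.7% and 23.2% of all genes. The call for SLC38A1 (0.14, adjusted p = 0.015) was lost under 8 alternatives, among them without MDA-MB-231 EV replicate 1 (adjusted p = 0.064) and without SUM159 KD replicate 1 (adjusted p = 0.092).

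The control cells of the 3 lines differed widely in these mRNAs. Between EV groups 7 of the 10 were higher and 1 lower in SUM159 than in MDA-MB-231 (39.2% and 36.4% of all genes), 5 were higher and 5 lower in BT549 than in MDA-MB-231 (39.1% and 40.4%), and 3 were higher and 7 lower in BT549 than in SUM159 (37.7% and 40.7%). These comparisons share control libraries. By library size only BT549 against MDA-MB-231 gave 4 higher and 6 lower, where all genes gave 30.8% and 49.6%. BT549 EV held 11.2 times as much SLC6A9 and 7.63 times as much SLC43A2 as MDA-MB-231 EV, but 9.17 times less SLC7A11 and 6.35 times less SLC1A4. Per length, SLC7A5 led in all 3 EV groups, at 802 TPM in MDA-MB-231, 892 in SUM159 and 498 in BT549. It was followed by SLC1A5 and SLC3A2 in MDA-MB-231, which lay within their spread of each other, and by SLC3A2 in the other 2 lines. The order of the EV groups for SLC7A1 depended on the scaling: BT549 was above MDA-MB-231 by 0.11 (log2) after TMM scaling and below it by library size alone (-0.20). SLC43A2 in SUM159 and MDA-MB-231 EV overlapped, and SLC1A4 did not differ by the test between these 2 groups (adjusted p = 0.22).

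Several of the genes are read as more than one transcript, among which the deposited expected counts divide the reads by estimate. For SLC38A2 a transcript annotated as subject to nonsense-mediated decay, SLC38A2-208, took 37.9% and 32.6% of the counts in MDA-MB-231 EV and 39.3% and 48.2% in KD. It took 19.9% and 26.0% in SUM159 EV and 29.5% and 30.1% in KD, and 21.3% and 27.2% in BT549 EV and 27.8% and 21.0% in OE. The KD libraries lay above their controls in both knockdown lines, and the BT549 groups overlapped. The main transcript, SLC38A2-201, nevertheless followed the gene, with 4437 and 4232 expected counts in SUM159 EV and 5787 and 6860 in KD. SLC38A2-208 rose there as well, from 1110 and 1488 expected counts to 2434 and 2966. Its log2 fold change was 0.93, against 0.42 for SLC38A2-201. In MDA-MB-231 KD SLC38A2-201 fell (-0.50) and SLC38A2-208 was not called (0.02), and in BT549 OE both fell (-0.88 each). For SLC3A2 one transcript, SLC3A2-203, was read mainly in 1 line. It held 384 to 461 expected counts in the MDA-MB-231 libraries and at most 24 in any other. SLC1A5-201 took 1.79% and 2.79% of SLC1A5 in SUM159 EV and 12.9% and 8.27% in KD. Its own expected counts overlapped, at 163 and 257 in EV and 347 and 253 in KD, and were not called (edgeR adjusted p = 0.62). The share rose as the main transcript SLC1A5-203 fell, from 8066 and 7855 expected counts to 2155 and 2582. SLC1A5-205 fell in SUM159 KD (log2 fold change -2.76). Against the gene, it rose in BT549, from 80.2 and 80.4 expected counts in EV to 130 and 165 in OE (0.91, edgeR adjusted p = 0.012).

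Of 29 other amino acid carriers of the plasma membrane, 11 passed the filter. Their calls were 0 higher and 2 lower in MDA-MB-231 KD (21.2% and 16.5% of all genes), 3 and 3 in SUM159 KD (28.6% and 31.4%), and 4 and 5 in BT549 OE (35.6% and 35.0%), with a median log2 fold change of 0.09 in SUM159. The SUM159 counts were near the share of all genes, and with RLE scaling those of MDA-MB-231 were 1 and 2. SLC7A2, another cationic carrier, fell from 98.1 ± 0.4 CPM (SD, n = 2) in SUM159 EV to 19.2 ± 0.3 in KD, and from 10.5 ± 0.7 to 6.66 ± 0.22 in MDA-MB-231. SLC43A1 (LAT3), of the same family as SLC43A2, fell from 24.3 ± 0.9 to 8.82 ± 1.01 CPM in SUM159, and SLC6A6, the taurine carrier, from 140.4 ± 0.06 to 77.8 ± 3.7. The glutamate carriers SLC1A1 and SLC1A3 rose there by 0.47 and 0.36 on the log2 scale, as did SLC6A15, a neutral amino acid carrier, by 0.67. In BT549 SLC1A1 was at 10.0 CPM in EV and at 0 in both OE libraries, at least 71.2-fold lower against a floor of 3 counts per library, and SLC7A2 was at 0 in both EV libraries and at 1.26 CPM in OE, at least 9.15-fold higher. SLC6A15 was at 43.6 CPM in BT549 EV and 0.0937 in OE, under that floor. SLC7A6, which like SLC7A5 pairs with SLC3A2, rose there from 22.6 ± 2.8 to 68.5 ± 1.0 CPM, and SLC6A6 by 1.22 on the log2 scale. Without MDA-MB-231 EV replicate 2 or KD replicate 2, the count of calls in MDA-MB-231 was 1.

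The carriers inside the cell were counted against the same shares of all genes, 21.2% higher and 16.5% lower in MDA-MB-231 KD, 28.6% and 31.4% in SUM159 KD, and 35.6% and 35.0% in BT549 OE. Of 11 lysosomal and vesicular carriers tested, 6 were called higher and 1 lower in MDA-MB-231 KD, 5 and 1 in SUM159 KD, and 3 and 6 in BT549 OE. By library size only the MDA-MB-231 split was 4 and 2. CTNS, the lysosomal cystine exporter, rose from 20.1 ± 0.7 to 26.3 ± 0.6 CPM in MDA-MB-231. SLC36A1, a proton-coupled carrier, rose from 29.4 ± 1.2 to 50.9 ± 0.8 CPM in SUM159 and from 49.5 ± 0.8 to 88.0 ± 0.04 in BT549, and MFSD12, a cysteine importer of lysosomes and melanosomes, from 140 ± 1.4 to 218 ± 16 in SUM159. SLC15A3, a histidine and peptide carrier, was at 199 ± 11 CPM in BT549 EV and 0.443 ± 0.225 in OE. Of 11 mitochondrial carriers tested, 3 were called higher and 2 lower in MDA-MB-231 KD, 5 and 3 in SUM159 KD, and 5 and 5 in BT549 OE. The MDA-MB-231 split was 3 and 3 by library size only, with a mean of 50 or more counts, and with the 2 groups fitted alone. The aspartate-glutamate carriers SLC25A12 and SLC25A13 fell in SUM159, at log2 fold changes of -0.93 and -0.75, and the serine carrier SFXN1 rose by 0.19 in MDA-MB-231.

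**Figure D4:**
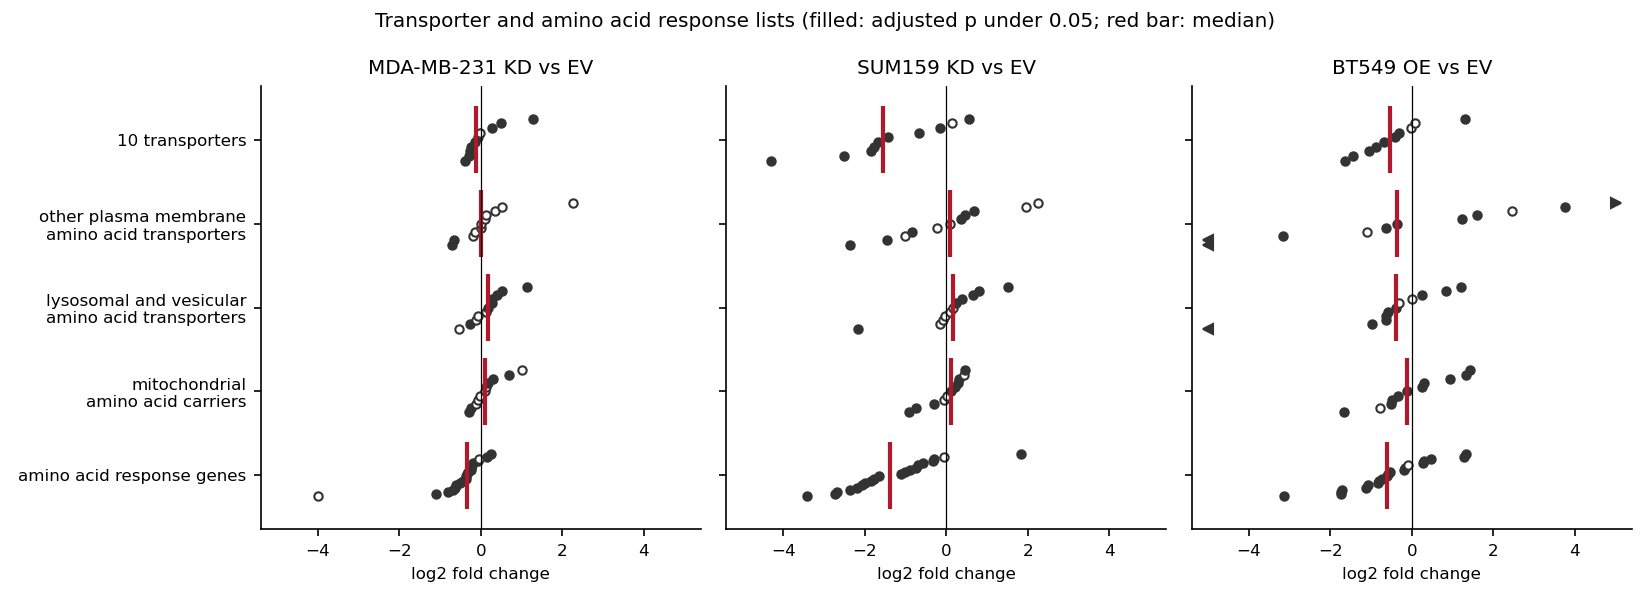
Log2 fold change of each tested gene of 5 lists in the 3 comparisons; filled points passed an adjusted p of 0.05, red bars are list medians, and triangles stand for values beyond the axis. The 10 transporters and the 20 amino acid response genes both have medians below -1 in SUM159, at -1.56 and -1.39, while the other carrier lists lie near 0.

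The genes of the amino acid response were counted because several of the 10 carriers belong to the targets of ATF4. Of 20 listed, all of them tested, 2 were called higher and 16 lower in MDA-MB-231 KD (median log2 fold change -0.35), against 21.2% and 16.5% of all genes. By library size only these were 0 and 17, against 14.3% and 24.7%. In SUM159 KD 1 was called higher and 18 lower (-1.39), against 28.6% and 31.4%, and in BT549 OE 5 and 14 (-0.61), against 35.6% and 35.0%. In SUM159 CHAC1, which degrades glutathione, fell from 57.8 ± 1.1 to 5.36 ± 0.06 CPM, ASNS, the asparagine synthetase, from 151 ± 4.5 to 22.6 ± 0.6, and PSAT1, of serine synthesis, from 400 ± 1 to 62.3 ± 0.9. VLDLR alone rose there, from 1.77 ± 0.11 to 6.34 ± 0.99 CPM. In MDA-MB-231 DDIT3, a stress-induced transcription factor, fell from 34.1 ± 1.5 to 15.8 ± 1.2 CPM, and CEBPB and PYCR1 rose by 0.24 and 0.16 on the log2 scale. In BT549 DDIT4, an inhibitor of mTORC1 signaling, fell from 738 ± 0.3 to 220.3 ± 3.3 CPM, whereas GPT2 and STC2 rose by 1.32 and 1.27 on the log2 scale.

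The 7 transcription factors known to act on these carriers were all called lower in SUM159 KD, where 31.4% of all genes were. The count was 6 with RLE scaling, by DESeq2, with a mean of 50 or more counts, and without EV replicate 2 or KD replicate 2. Of these factors ATF4 and CEBPG are also among the amino acid response genes counted above, so the counts share genes. ATF4 stood at 805 ± 26 CPM in EV and 400 ± 1 in KD, MYC at 821 ± 2 and 350 ± 3, and NFE2L2 (NRF2), which controls SLC7A11, at 179 ± 0.2 and 88.3 ± 0.6. The log2 fold change was -1.15 for BACH1, a repressor at NRF2 sites, -0.90 for CEBPG, -0.63 for HIF1A and -0.11 for EPAS1. In MDA-MB-231 KD 4 were called lower (16.5% of all genes), CEBPG (-0.63), MYC (-0.36), HIF1A (-0.28) and NFE2L2 (-0.13), and EPAS1 was higher (0.53). ATF4 was not called there, at 691 ± 3 CPM in EV and 668 ± 7 in KD. In BT549 OE 4 were called lower (35.0% of all genes), ATF4 (-0.74), NFE2L2 (-0.73), EPAS1 (-0.49) and BACH1 (-0.47), and MYC was not, at 130 ± 1 CPM in EV and 127 ± 4 in OE.

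Of 22 genes by which cells sense amino acids, 6 were higher and 4 lower in MDA-MB-231 KD (21.2% and 16.5% of all genes), 8 and 7 in SUM159 KD (28.6% and 31.4%), and 10 and 8 in BT549 OE (35.6% and 35.0%), all near the shares of all genes. By library size only they were 5 and 9 in MDA-MB-231, and in SUM159 they were 9 and 5 with RLE scaling and 8 and 4 by DESeq2. SESN2, a leucine sensor that is itself a target of ATF4, was lower in all 3, at log2 fold changes of -0.51, -2.37 and -1.71. RRAGA, a Rag GTPase that recruits mTORC1 to lysosomes, rose from 27.4 ± 0.3 to 36.3 ± 0.1 CPM in MDA-MB-231 KD and fell from 29.6 ± 1.7 to 8.61 ± 1.33 in SUM159 KD. SESN3 fell from 26.98 ± 1.2 to 4.40 ± 0.34 CPM in SUM159 KD and rose from 2.56 ± 0.77 to 80.4 ± 5.0 in BT549 OE.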

How the data were processed

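The deposited table held expected counts per Ensembl transcript for 12 polysome libraries. Per the labels and the methods, the authors trimmed reads with Trimmomatic, aligned them to GRCh38 (hg38) with HISAT2, removed duplicates with SAMtools and worked in Partek; the counting tool, annotation and strand setting are not given in the sources used here, and the labels name a poly(A) kit where the methods name ribosomal RNA depletion. In 8 columns 5.08% of cells held a question mark, taken as 0. Transcripts were matched to GENCODE 44 (99.25% to 99.41% of each library's counts), summed per symbol and rounded. Genes were tested with edgeR 4.0.16 (R 4.3.3): TMM scaling, low-count filter, a quasi-likelihood test on the means of 6 groups (6 residual degrees of freedom), and Benjamini-Hochberg adjustment over 16538 genes. The threshold was an adjusted p of 0.05. TPM used summed exon lengths. The procedure was tested on simulated data. Counting intervals and the floor of 3 counts cover counting error only. The members, gene lists and tests were chosen with earlier results of these data known. Named were all 10 members, TRMT112, the 7 regulators, and from each other list a selection of up to 3 genes per direction with the largest called changes, an average of 50 counts or more and groups that did not overlap. Alternatives were RLE scaling, library size only, the DESeq2 1.42.0 Wald test, all genes unfiltered, only genes averaging 50 counts or more, a replicate block, the compared groups alone, marked transcripts left out, main transcripts only, and each library left out. Whether replicate numbers pair the libraries was checked, and they did not.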

Additional observations from a re-analysis of the deposited data

Results flagged for a closer look

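The effect of TRMT112 KD differed between MDA-MB-231 and SUM159 for each of the 10 transporter genes. This was tested directly, by an interaction contrast in the edgeR quasi-likelihood fit. In the same contrast 50.9% of all genes tested were called. Given as the log2 fold change in MDA-MB-231 minus that in SUM159, the difference was 4.16 for SLC7A11, 2.23 for SLC6A9, 2.17 for SLC7A5, 2.11 for SLC1A4, 1.70 for SLC1A5, 1.14 for SLC43A2 and 1.06 for SLC3A2. It was smaller for SLC7A1 (0.43) and SLC38A1 (0.14), and negative for SLC38A2 (-0.85). The call for SLC38A1 was lost under 8 alternatives. The lines also differed in the depth of the knockdown and in their medium, and the part of either in these differences was not tested. No group held enough libraries for a test of single libraries that stand apart.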

How the results depend on the processing

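Over 950 alternative values of the 70 member results, 909 kept their direction and their side of the threshold, 32 lost a call, 4 gained one and 5 changed sign. The 5 changes of sign were SLC7A11 in BT549 OE against EV with 1 library left out (range -0.075 to 0.0015), SLC43A2 in SUM159 EV against MDA-MB-231 EV by its main transcript (0.12) and with 1 library left out (-0.107 to 0.057), SLC7A1 in BT549 EV against MDA-MB-231 EV by library size only (-0.20, adjusted p = 3.3e-06), and SLC3A2 in BT549 EV against SUM159 EV by its main transcript (0.068). By main transcripts alone 5 of the 10 genes, not 9, were called in MDA-MB-231 KD, 2 higher and 3 lower. That fit tested 66844 transcripts, of which only 1560 were called higher and 781 lower, so the 2 counts have unlike backgrounds. The cause of the drop from 9 was not tested. Replicate numbers did not pair the libraries: correlations of their deviations lay between -0.04 and 0.03. With a replicate block the 10 genes gave 9, 9 and 8 calls in MDA-MB-231, SUM159 and BT549, and the block changed no call of a member. With 2 libraries a group, SEs of the members' log2 fold changes in the KD and OE comparisons lay between 0.028 for SLC7A5 and 0.142 for SLC1A4.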

Other observations

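The genes whose 3 log2 fold changes lay nearest those of a carrier, among the 12590 that averaged 50 counts or more, were found by the mean absolute difference over the 3 comparisons. For SLC7A5 they were RAC2 (0.147), a gene listed only as ENSG00000266086 (0.150) and FBXO6 (0.160). For SLC7A11 they were RCCD1 (0.105), TIAM1 (0.199) and CXCL8 (0.284), with log2 fold changes of -4.27, -4.40 and -3.98 in SUM159 KD. In MDA-MB-231 KD these genes were at 0.13, 0.30 and -0.44, where SLC7A11 was at -0.15. For SLC38A2 they were SPRING1 (0.042), S100A6 (0.043) and ATP6V1G1 (0.050).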
